A study of Bos taurus with 29 samples.

Results

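The 31 genes named as subunits of RNA polymerase I, II or III (Pol I, Pol II and Pol III) were described across single cattle oocytes. They were taken by name, as every row of the deposited table whose symbol begins with POLR1, POLR2 or POLR3 followed by a letter, and make up 31 of 13502 listed genes. By their known place, 6 belong to Pol I, 8 to Pol II and 10 to Pol III, 2 are common to Pol I and Pol III, and 5 are built into all 3 enzymes. The rule used names and no measured value, but it was set with earlier results of these data known. CNP_IVM oocytes (n = 7) spent 6 h inside their cumulus in medium without EGF that held 200 nM CNP, which is C-type natriuretic peptide, a signal of the follicle that keeps meiosis arrested. They then had 22 h of maturation with EGF and FSH. IVM oocytes (n = 8) had the same 22 h of maturation only. Both were taken at metaphase II, judged by the polar body, while germinal vesicle (GV) oocytes (n = 7), the immature stage, had their cumulus removed when collected. All oocytes were wild type and came from donors treated with FSH. The CNP_IVM culture lasted 28 h in all and no group had the added 6 h alone, so the peptide and the longer culture cannot be told apart.

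Pol I makes the precursor of the large ribosomal RNAs, Pol II makes messenger RNAs, and Pol III makes transfer RNAs, 5S ribosomal RNA and other short RNAs. Each enzyme has a pair of large subunits that form the active site, and an assembly platform. Each also has a stalk that contacts the emerging RNA, and a set of small subunits common to all of them. Oocytes make and store messenger RNA while they grow, transcribe little once fully grown, and use, shorten or degrade the stored RNA during maturation. The values below are levels of the messenger RNAs that encode these subunits, not the activity of the enzymes.

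Levels are in CPM, a gene's share of the reads of its library. The libraries were primed on poly(A), so a level joins transcript amount, tail length and the rest of the library, which cannot be told apart. Library totals lay between 20159662 and 39340040 reads. Since a library is 1 oocyte and donors are not named, a group was taken as 1 sample and no test was made. Ranges and SDs give the spread between oocytes and not between animals. GV replicate 9 is titled as GV, while its treatment label says that it was matured in vitro. Kept with GV, it reached 1 CPM in 9381 genes, against 11311 to 11798 in the other 6 GV oocytes, so results that rest on it are also given without it. Genes that reached 1 CPM numbered 9429 to 9834 in CNP_IVM, 9431 to 10783 in IVM and 9381 to 11798 in GV oocytes. All 15 oocyte markers were listed, and summed to 43794 to 61576 CPM in CNP_IVM, 33803 to 51363 CPM in IVM and 26128 to 30959 CPM in GV oocytes. Of 20 cumulus and granulosa markers 16 were listed, summing to 256 to 341 CPM in CNP_IVM, 370.2 to 652 CPM in IVM and 632 to 1003 CPM in GV oocytes. By group mean STAR was the leading gene in IVM and GV oocytes, and HAS2 in CNP_IVM oocytes. Of 10 blood and immune markers 5 were listed, summing to 3.53 to 25.7, 8.42 to 46.8 and 173 to 362 CPM in CNP_IVM, IVM and GV oocytes, with VWF the leading gene and CD68 at 0 in all 7 CNP_IVM oocytes. STAR set the direction of the cumulus sum. Without STAR the other 15 markers summed to 156 to 240.3 CPM in CNP_IVM, 147 to 243 CPM in IVM and 62.7 to 263 CPM in GV oocytes, and HAS2 averaged 118, 77.1 and 16.3 CPM in these groups. By group mean, 13 of 16 cumulus markers were lower in CNP_IVM and 11 of 16 in IVM than in GV oocytes, as were 4 of 5 blood and immune markers in both. The part of these markers in the results below was not tested.

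Most subunit transcripts that differed after maturation were lower. A gene was counted as higher or lower when its group means, each with 1 CPM added, were at least 2-fold apart. Only genes that reached 1 CPM in 6 or more libraries were counted. That filter kept 30 of the 31 subunit genes and left out POLR3E. In IVM against GV, 5 of 30 subunit genes (16.7%) were at least 2-fold higher, where 15.9% of all 11852 genes were. In the same comparison 16 of 30 (53.3%) were at least 2-fold lower, where 33.0% of all genes were, and 9 lay under 2-fold. The median log2 difference was -1.02 over the subunit genes and -0.28 over all genes. In CNP_IVM against GV, 4 of 30 (13.3%) were higher, against 15.3% of all genes, and 17 of 30 (56.7%) were lower, against 42.0%. There the median log2 difference was -1.15 over the subunit genes and -0.61 over all genes. Both of these comparisons use the same 7 GV oocytes. In CNP_IVM against IVM, 1 of 30 (3.33%) was higher, against 1.86% of all genes, and 6 of 30 were lower, against 14.8%, with medians of -0.10 over the subunit genes and -0.28 over all genes. With no filter, POLR3E joined the lower genes in both comparisons with GV. In IVM against GV this made 5 of 31 higher and 17 of 31 lower, where 14.0% and 30.4% of all listed genes were. In CNP_IVM against GV it made 4 of 31 higher and 18 of 31 lower, where 13.5% and 38.6% were.

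Counts of genes whose oocytes did not overlap gave a similar order. In IVM against GV every oocyte was higher in 5 of 30 subunit genes, where 11.5% of all genes had no overlap in that direction, and every oocyte was lower in 13 of 30 (43.3%), where 19.9% had none. In CNP_IVM against GV these counts were 5 of 30, against 12.9% of all genes, and 14 of 30 (46.7%), against 28.0%. In CNP_IVM against IVM 1 gene, POLR2F, was higher in every oocyte, where 1.38% of all genes were, and 0 were lower in every oocyte, where 2.60% were. Without GV replicate 9, the no-overlap counts in IVM against GV were 5 higher and 14 lower, where 14.0% and 25.6% of all genes were. For CNP_IVM against GV they were 6 higher and 15 lower, where 15.1% and 36.1% were. By the 2-fold rule without this oocyte, 4 of 30 subunit genes were higher and 14 lower in IVM against GV. Of all genes 16.4% were higher and 31.7% lower. In CNP_IVM against GV without it, 5 were higher and 15 lower, where 14.9% and 40.5% of all genes were.

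The split between higher and lower depended on the scale. With trimmed-mean scaling factors in place of library totals, the median of all genes was -0.07 in CNP_IVM against IVM, 0.03 in IVM against GV and -0.08 in CNP_IVM against GV. On that scale 2 subunit genes were higher and 3 lower in CNP_IVM against IVM, 8 were higher and 10 lower in IVM against GV, and 10 were higher and 10 lower in CNP_IVM against GV. All genes then split into 3.64% higher and 8.46% lower, 24.8% higher and 27.1% lower, and 27.1% higher and 32.2% lower in these comparisons. With quantile normalization the subunit genes split into 1 higher and 2 lower, 7 higher and 12 lower, and 6 higher and 12 lower, with medians of all genes at 0.0052, 0.15 and 0.14. All genes then split into 3.91% higher and 5.94% lower, 26.4% higher and 24.1% lower, and 29.8% higher and 26.9% lower. Of the 16 genes lower in IVM against GV, 10 were at least 2-fold lower under every setting tried, among them POLR1D, POLR1E, POLR2E, POLR2F, POLR2G, POLR2I, POLR2L, POLR2M and POLR3C. In CNP_IVM against GV 10 of the 17 lower genes were so under every setting, among them POLR1D, POLR1E, POLR1G, POLR2E, POLR2G, POLR2I, POLR2L, POLR2M and POLR3C.

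**Figure D1:**
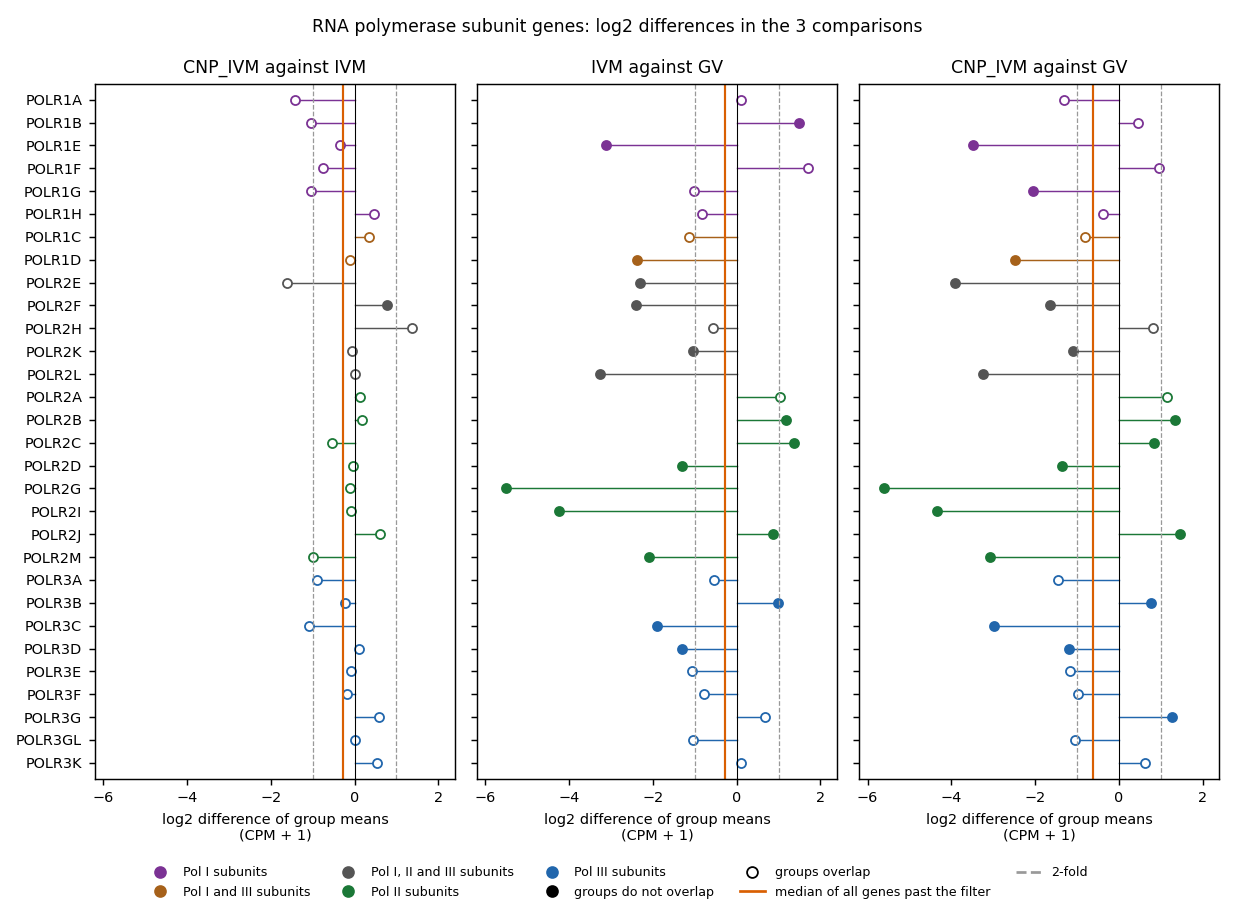
Log2 difference of group means (CPM with 1 added, horizontal axis) of 30 subunit genes, coloured by polymerase, in CNP_IVM against IVM, IVM against GV and CNP_IVM against GV. Filled circles mark genes whose oocytes do not overlap between the groups, open circles those that do, dashed lines mark 2-fold and the orange line is the median of all genes past the filter. POLR2G lies farthest to the left in both panels against GV, at -5.50 and -5.60, and in CNP_IVM against IVM the values lie between -1.62 and 1.37.

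In Pol II the stalk gene POLR2G and the small zinc-binding subunit gene POLR2I were farthest below GV, while the genes of the large subunits and of the platform pair lay above GV. POLR2G, the stalk subunit that contacts the emerging RNA, had 8.68, 12.4 and 24.2 CPM in the lowest, median and highest CNP_IVM oocyte, 10.1, 16.2 and 25.8 CPM in IVM oocytes, and 297, 785 and 1028 CPM in GV oocytes. Every matured oocyte lay below every GV oocyte, by log2 differences of -5.50 in IVM and -5.60 in CNP_IVM, which is -5.21 and -4.99 relative to the median of all genes. Over all reads of a group the POLR2G level was 14.3 to 15.2 CPM in CNP_IVM, 15.5 to 16.4 CPM in IVM and 743 to 750.1 CPM in GV oocytes (exact 95% Poisson intervals, which cover counting error only). POLR2D, its partner in the stalk, had 80.3, 98.3 and 130.5 CPM in CNP_IVM oocytes, 80.9, 109 and 124 CPM in IVM oocytes, and 198, 287 and 301 CPM in GV oocytes. Again no matured oocyte overlapped GV, but the log2 differences were -1.31 in IVM and -1.36 in CNP_IVM, which came under 2-fold with trimmed-mean scaling (-0.91 and -0.71). A log2 ratio of POLR2G to POLR2D within an oocyte was taken with 1 CPM added to each, so the scale cancels only in part. This ratio had a median of -2.81 in CNP_IVM, -2.66 in IVM and 1.58 in GV oocytes. It lay between -3.63 and -1.83 in CNP_IVM, between -3.42 and -2.22 in IVM and between 0.59 and 1.81 in GV oocytes, so the stalk partners differed by unequal amounts. POLR2I, a small zinc-binding subunit that acts in start site choice and in RNA cleavage, had 2.81, 6.70 and 11.3 CPM in CNP_IVM oocytes, 3.501, 7.31 and 10.3 CPM in IVM oocytes, and 114, 166 and 206 CPM in GV oocytes. All matured oocytes lay below all GV oocytes, by log2 differences of -4.25 in IVM and -4.34 in CNP_IVM. POLR2M encodes an associated protein that competes with the initiation factor TFIIF and is not a core subunit. It had 3.03, 6.08 and 10.8 CPM in CNP_IVM oocytes, 5.66, 14.8 and 20.9 CPM in IVM oocytes, and 42.0, 63.8 and 100.4 CPM in GV oocytes. It was lower in every matured oocyte (log2 differences of -2.09 in IVM and -3.08 in CNP_IVM against GV).

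The catalytic subunits of Pol II were higher after maturation on this scale. POLR2A, the largest subunit, whose C-terminal repeats carry the phosphorylation marks of transcription, had 5.85, 16.99 and 33.7 CPM in CNP_IVM oocytes, 5.29, 19.5 and 28.1 CPM in IVM oocytes, and 3.46, 6.84 and 13.2 CPM in GV oocytes. In each matured group 5 oocytes lay above all GV oocytes, and the log2 differences were 1.02 in IVM and 1.15 in CNP_IVM. Leaving out any of several single oocytes brought the IVM value under 2-fold, to as low as 0.90, and leaving out CNP_IVM replicate 2 brought the CNP_IVM value to 0.96. POLR2B, which completes the active site, had 81.0, 97.6 and 135 CPM in CNP_IVM oocytes, 67.5, 84.4 and 149 CPM in IVM oocytes, and 1.34, 43.0 and 57.5 CPM in GV oocytes. All matured oocytes were above all GV oocytes (log2 differences of 1.17 in IVM and 1.35 in CNP_IVM). The 1.34 CPM came from GV replicate 9, and without it the IVM value was 0.96. POLR2C, a platform subunit, had 264, 337 and 483 CPM in CNP_IVM oocytes, 409, 502 and 703 CPM in IVM oocytes, and 57.4, 210.3 and 249 CPM in GV oocytes. Its matured oocytes were all above GV, with log2 differences of 1.36 in IVM and 0.84 in CNP_IVM. POLR2J, its partner in the platform, had 569, 835 and 1469 CPM in CNP_IVM oocytes, 385, 550.0 and 941 CPM in IVM oocytes, and 226, 329.9 and 356 CPM in GV oocytes. POLR2J too was higher in every matured oocyte than in any GV oocyte, by 0.88 in IVM and 1.47 in CNP_IVM on the log2 scale.

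The 5 subunits built into all 3 polymerases did not move together. POLR2E, which lies at the jaw that grips downstream DNA, had 7.73, 14.9 and 25.2 CPM in CNP_IVM oocytes, 23.4, 44.3 and 94.7 CPM in IVM oocytes, and 214, 263 and 296 CPM in GV oocytes. No matured oocyte overlapped GV, and the log2 differences were -2.30 in IVM and -3.92 in CNP_IVM. POLR2F, needed to hold the largest subunit in the assembled core, had 117, 147 and 227 CPM in CNP_IVM oocytes, 71.3, 94.1 and 109 CPM in IVM oocytes, and 409.8, 483 and 556 CPM in GV oocytes. The 3 groups were fully separate, in the order IVM, CNP_IVM and GV. POLR2F differed from GV by -2.41 in IVM and -1.64 in CNP_IVM on the log2 scale, and with trimmed-mean scaling the CNP_IVM value was just under 2-fold. POLR2L, a small zinc-binding subunit beside the platform, had 6.47, 10.3 and 14.8 CPM in CNP_IVM oocytes, 4.496, 9.78 and 19.9 CPM in IVM oocytes, and 84.4, 99.97 and 170.5 CPM in GV oocytes. Here too every matured oocyte was below GV, by -3.26 in IVM and -3.24 in CNP_IVM. POLR2K, another small zinc-binding subunit, had 8.80, 10.3 and 16.1 CPM in CNP_IVM oocytes, 6.25, 11.4 and 18.2 CPM in IVM oocytes, and 19.1, 25.3 and 34.3 CPM in GV oocytes. Its oocytes were also separate from GV, at -1.04 in IVM and -1.11 in CNP_IVM, values that came under 2-fold with either of the other scalings. POLR2H, a shared subunit on the outer face of the core, had 169, 442 and 571 CPM in CNP_IVM oocytes, 92.2, 129.95 and 280.2 CPM in IVM oocytes, and 117, 275 and 382 CPM in GV oocytes. Its log2 difference from GV was -0.57 in IVM and 0.81 in CNP_IVM, both under 2-fold and with overlapping oocytes.

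**Figure D2:**
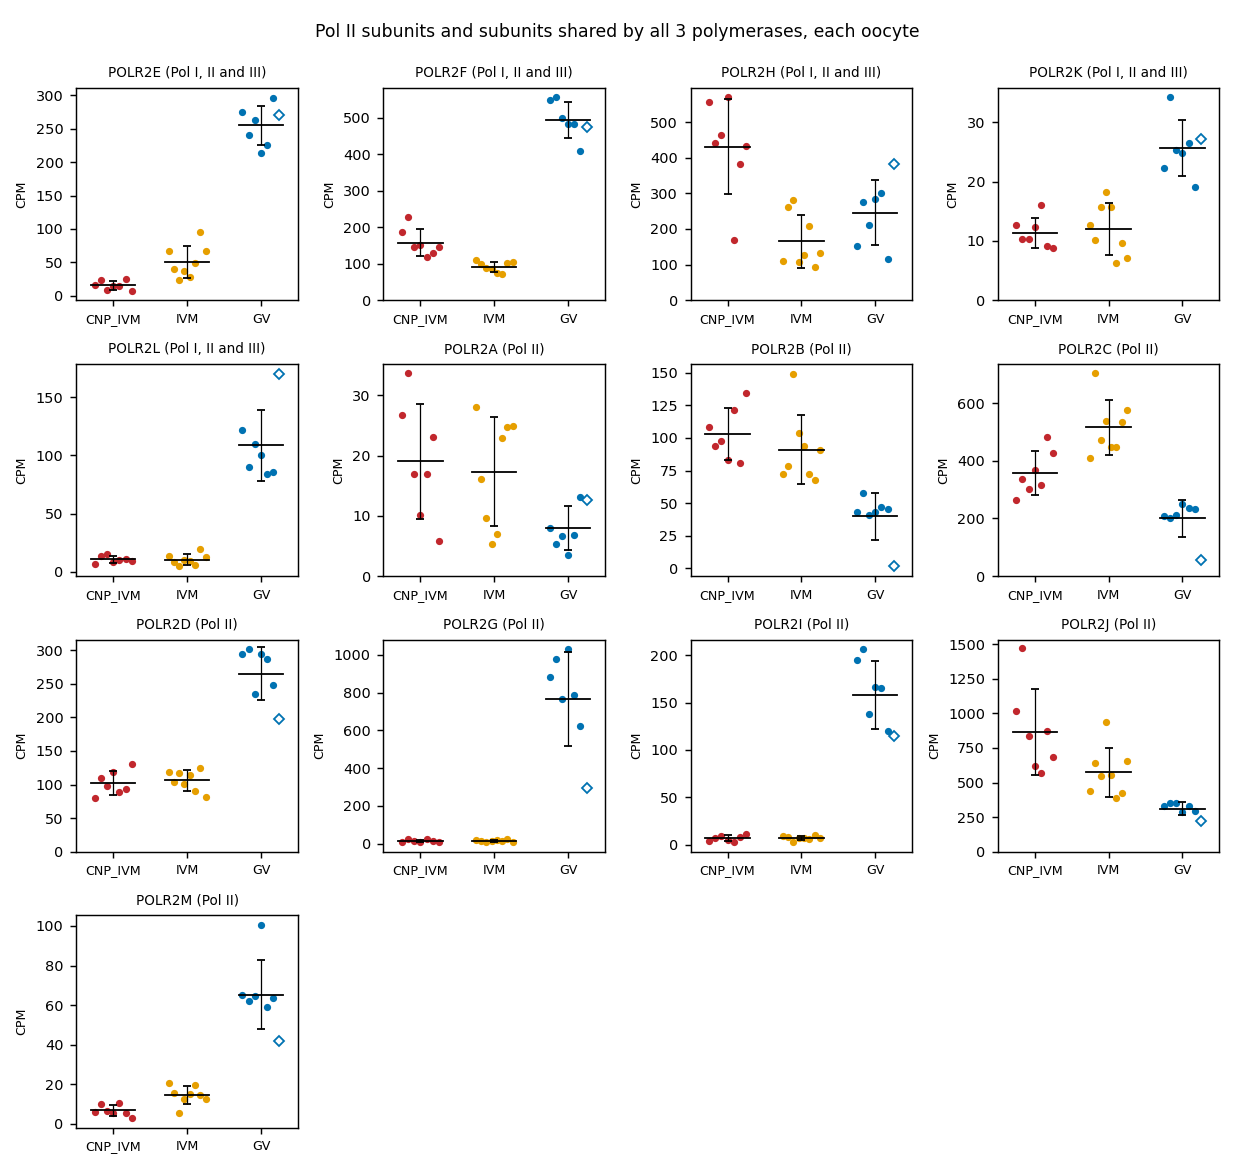
CPM (linear axis) of each oocyte for the 5 subunits shared by all 3 polymerases and the 8 Pol II genes, in CNP_IVM, IVM and GV oocytes. Points are oocytes, the open diamond is GV replicate 9, and bars with whiskers are means ± SD between oocytes, n = 7, 8 and 7. POLR2G, POLR2I and POLR2L stand near the axis in every matured oocyte, while POLR2J and POLR2C stand above GV.

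Among Pol I genes POLR1E was lower and POLR1B higher in every IVM oocyte than in any GV oocyte. POLR1E, which with POLR1G forms a module of Pol I that resembles TFIIF, had 37.5, 51.9 and 67.2 CPM in CNP_IVM oocytes, 42.5, 56.7 and 112 CPM in IVM oocytes, and 283, 656 and 768 CPM in GV oocytes. All matured oocytes lay below all GV oocytes, with log2 differences of -3.12 in IVM and -3.47 in CNP_IVM. POLR1G had 6.23, 10.5 and 17.99 CPM in CNP_IVM oocytes, 9.47, 28.6 and 41.1 CPM in IVM oocytes, and 33.8, 41.6 and 124 CPM in GV oocytes. CNP_IVM was separate from GV, at a log2 difference of -2.05, while IVM overlapped it at -1.01, which became -0.64 without GV replicate 9. POLR1B, the second-largest subunit, had 61.8, 82.9 and 90.8 CPM in CNP_IVM oocytes, 88.7, 148 and 342 CPM in IVM oocytes, and 42.8, 49.7 and 82.7 CPM in GV oocytes. Every IVM oocyte was above every GV oocyte (log2 difference 1.49), and CNP_IVM overlapped GV (0.46, which was 1.11 with trimmed-mean scaling). POLR1A, the largest subunit, had 3.68, 7.37 and 12.3 CPM in CNP_IVM oocytes, 11.5, 14.7 and 44.6 CPM in IVM oocytes, and 9.85, 15.6 and 55.0 CPM in GV oocytes. It differed from GV by 0.11 in IVM, which became -0.10 without IVM replicate 9, and by -1.30 in CNP_IVM on the log2 scale, with overlapping oocytes in both, and the 55.0 CPM of GV replicate 9 stood above the 20.9 CPM that was the highest of the other GV oocytes. Without that oocyte the CNP_IVM value was -0.86.

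The Pol I stalk subunit POLR1F varied widely within groups. It had 3.36, 5.67 and 55.1 CPM in CNP_IVM oocytes, 2.57, 29.9 and 37.3 CPM in IVM oocytes, and 3.04, 5.11 and 16.3 CPM in GV oocytes. In IVM, replicates 1, 6, 7, 9 and 10 had 28.9 to 37.3 CPM while replicates 3, 5 and 8 had 2.57 to 9.04 CPM, so the mean of 22.3 CPM fell in a gap between oocytes. The log2 difference was 1.71 in IVM against GV, with 5 of 8 IVM oocytes above all GV oocytes and 1 below them all. In CNP_IVM 1 oocyte, replicate 5, held the 55.1 CPM and the other 6 had 3.36 to 7.54 CPM. The difference of 0.96 from GV became -0.07 without it. POLR1H, a small zinc-binding subunit with a part in RNA cleavage, had 119, 139.7 and 174 CPM in CNP_IVM oocytes, 74.5, 98.7 and 131 CPM in IVM oocytes, and 105, 188 and 248 CPM in GV oocytes. Its differences from GV, -0.84 in IVM and -0.38 in CNP_IVM, were under 2-fold, and that in CNP_IVM changed sign with trimmed-mean scaling.

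Pol I and Pol III share their own platform pair in place of POLR2C and POLR2J. POLR1D had 16.7, 22.1 and 29.9 CPM in CNP_IVM oocytes, 17.5, 22.1 and 42.7 CPM in IVM oocytes, and 99.7, 122 and 221 CPM in GV oocytes. No matured oocyte reached the GV range, and the log2 differences were -2.37 in IVM and -2.48 in CNP_IVM, while both Pol II platform genes were higher after maturation. POLR1C, its partner, had 0.336, 1.15 and 2.67 CPM in CNP_IVM oocytes, 0.405, 0.668 and 1.40 CPM in IVM oocytes, and 0, 3.56 and 4.30 CPM in GV oocytes. The 0 was GV replicate 9, where 3 reads would be 0.0817 CPM. The other 6 GV oocytes had 1.75 to 4.30 CPM, above all IVM oocytes. With all oocytes its log2 differences from GV were -1.14 in IVM and -0.81 in CNP_IVM, of which that in CNP_IVM changed sign with quantile normalization.

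The large subunits of Pol III lay on opposite sides of GV by group mean. POLR3A, the largest Pol III subunit, had 4.88, 9.48 and 11.9 CPM in CNP_IVM oocytes, 4.28, 12.7 and 34.3 CPM in IVM oocytes, and 7.74, 26.6 and 38.8 CPM in GV oocytes. Its log2 differences from GV were -0.54 in IVM and -1.45 in CNP_IVM, with overlap in both, and the CNP_IVM value came under 2-fold with trimmed-mean scaling (-0.85) and quantile normalization (-0.62). The lowest GV oocyte was replicate 9, and without it all CNP_IVM oocytes lay below the GV range of 20.5 to 38.8 CPM. POLR3B, the other large subunit, had 17.3, 21.7 and 27.8 CPM in CNP_IVM oocytes, 18.4, 25.9 and 31.8 CPM in IVM oocytes, and 7.41, 11.1 and 16.9 CPM in GV oocytes. Matured oocytes were all above GV, by 0.99 in IVM and 0.76 in CNP_IVM on the log2 scale. Together with POLR1B and POLR2B this made all 3 second-largest subunits higher in every IVM oocyte than in any GV oocyte, where 11.5% of all genes were. In CNP_IVM against GV this held for POLR2B and POLR3B, while POLR1B overlapped GV. The log2 ratio of POLR3B to POLR3A within an oocyte also had 1 CPM added to each gene. Its median was 1.11 in CNP_IVM, 0.97 in IVM and -1.13 in GV oocytes. It ran from 0.67 to 2.29 in CNP_IVM, from -0.11 to 1.88 in IVM and from -1.35 to 0.41 in GV oocytes, so IVM overlapped GV. The GV high was replicate 9, with 10.6 CPM of POLR3B and 7.74 CPM of POLR3A.

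The Pol III initiation trimer joins POLR3C and POLR3F with either POLR3G or POLR3GL, which are alternative versions of 1 subunit. In human and mouse cells POLR3G is the version known from pluripotent cells and POLR3GL the one found broadly. POLR3G had 45.0, 62.5 and 81.9 CPM in CNP_IVM oocytes, 23.3, 42.2 and 62.3 CPM in IVM oocytes, and 17.4, 26.4 and 31.0 CPM in GV oocytes. CNP_IVM was separate from GV (log2 difference 1.28), and in IVM 6 of 8 oocytes were above all GV oocytes (0.69). POLR3GL had 0.0770, 0.423 and 2.18 CPM in CNP_IVM oocytes, 0.189, 0.804 and 1.80 CPM in IVM oocytes, and 0.579, 0.781 and 16.1 CPM in GV oocytes. The 16.1 CPM was GV replicate 9, and the other 6 GV oocytes had 0.579 to 1.01 CPM. Its differences from GV, -1.04 in both matured groups, became 0.12 in both without that oocyte. POLR3C had 9.47, 10.98 and 26.7 CPM in CNP_IVM oocytes, 10.3, 24.2 and 70.8 CPM in IVM oocytes, and 109.6, 113 and 138 CPM in GV oocytes. All matured oocytes were below GV, by log2 differences of -1.91 in IVM and -2.99 in CNP_IVM. POLR3F had 0.172, 0.728 and 1.49 CPM in CNP_IVM oocytes, 0.108, 0.942 and 3.6004 CPM in IVM oocytes, and 0.196, 0.555 and 15.9 CPM in GV oocytes. The GV high was again replicate 9, and the other GV oocytes had 0.196 to 0.813 CPM. Its log2 differences from GV were -0.78 in IVM and -0.98 in CNP_IVM. Without GV replicate 9 they were 0.53 and 0.34, and with group medians 0.32 and 0.15, and the CNP_IVM value also changed sign with quantile normalization.

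Pol III has its own dimerization pair and its own cleavage subunit. POLR3D had 48.9, 61.2 and 82.8 CPM in CNP_IVM oocytes, 28.7, 56.0 and 88.6 CPM in IVM oocytes, and 121, 135 and 198 CPM in GV oocytes. All matured oocytes lay below GV, at log2 differences of -1.31 in IVM and -1.20 in CNP_IVM, with the IVM value at -0.99 and the CNP_IVM value at -0.56 under trimmed-mean scaling. POLR3E, its partner, was at the limit of detection, with 0, 0 and 0.866 CPM in CNP_IVM oocytes, 0, 0.108 and 0.661 CPM in IVM oocytes, and 0.425, 1.78 and 2.59 CPM in GV oocytes. It was at 0 in 4 of 7 CNP_IVM and 3 of 8 IVM oocytes, where 3 reads would be 0.0763 to 0.149 CPM, depending on the oocyte. Over all reads it was at 0.102 to 0.199 CPM in CNP_IVM, 0.187 to 0.309 CPM in IVM and 1.43 to 1.77 CPM in GV oocytes (exact 95% Poisson intervals). POLR3K, which acts in RNA cleavage and termination, had 829, 1052 and 1299.6 CPM in CNP_IVM oocytes, 565, 779 and 852 CPM in IVM oocytes, and 571, 636 and 946 CPM in GV oocytes. It differed from GV by 0.10 in IVM, which changed sign with quantile normalization, and by 0.63 in CNP_IVM on the log2 scale, and 6 of 7 CNP_IVM oocytes were above every GV oocyte. CRCP, also a subunit of Pol III, has a symbol outside the name pattern. CRCP had 404, 433 and 488 CPM in CNP_IVM oocytes, 182, 295 and 422 CPM in IVM oocytes, and 81.1, 194 and 227 CPM in GV oocytes. Every CNP_IVM oocyte was above every GV oocyte (log2 difference 1.27), and IVM overlapped GV at 0.74.

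**Figure D3:**
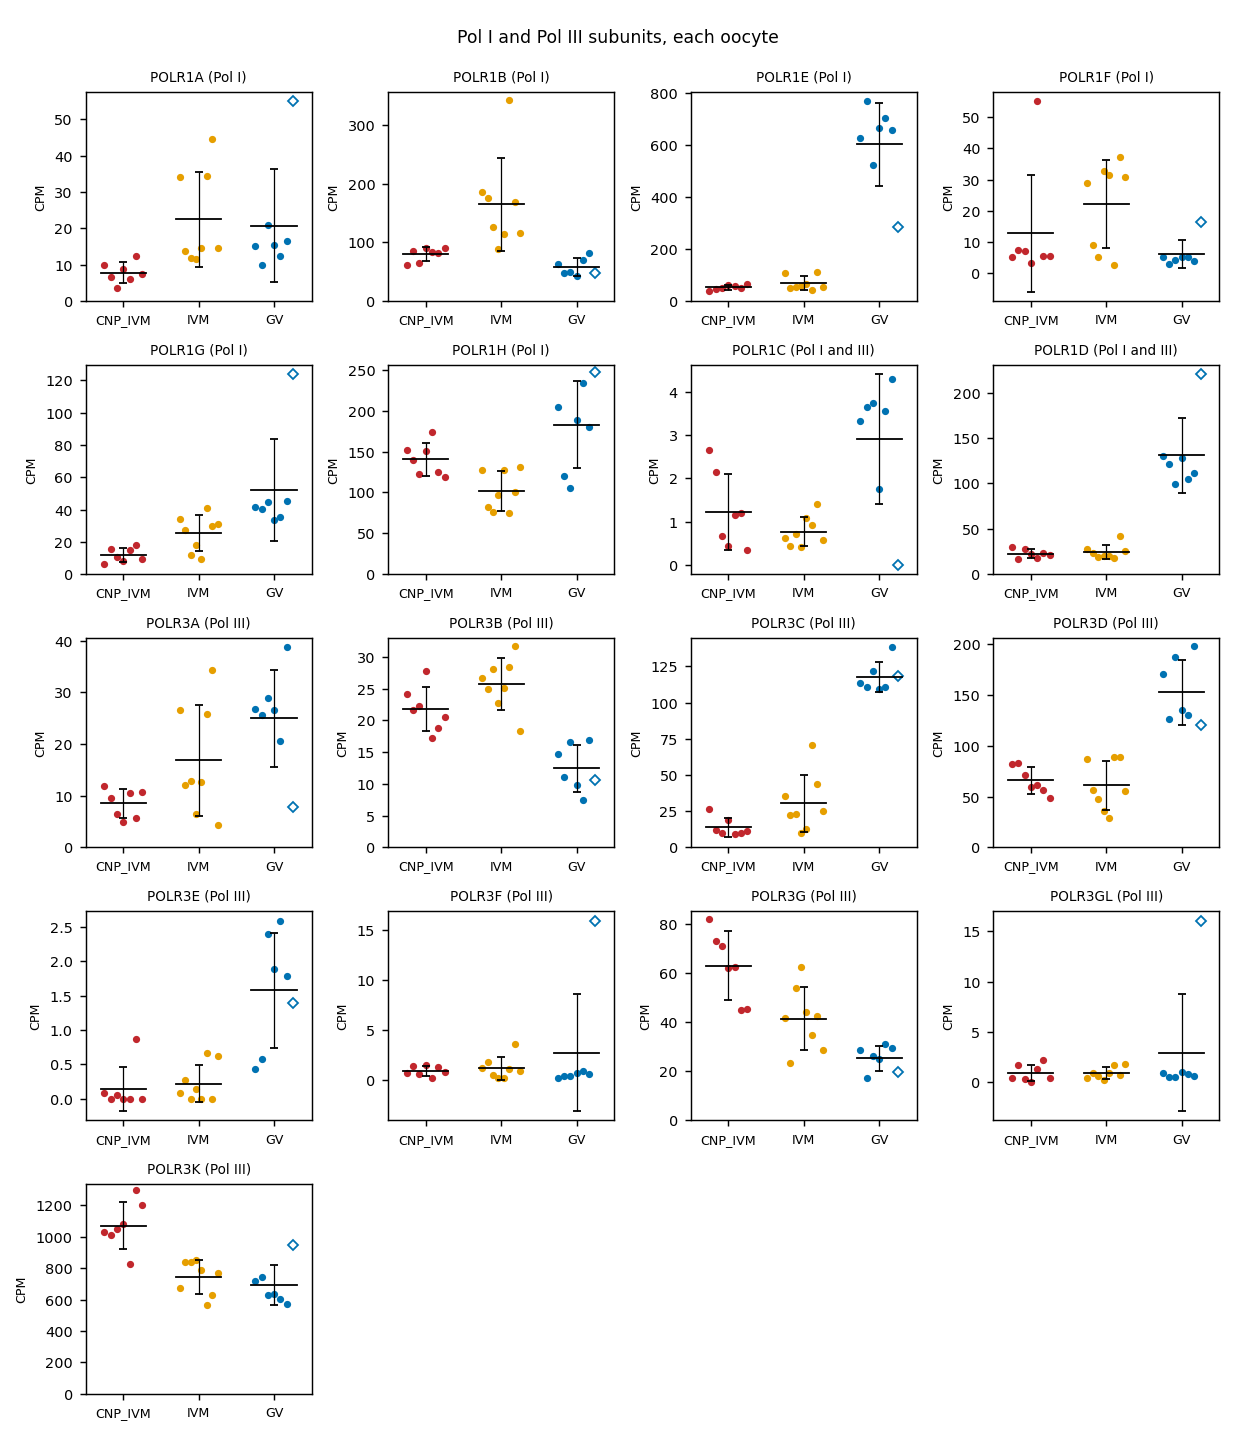
CPM (linear axis) of each oocyte for the Pol I genes, the pair shared by Pol I and Pol III, and 9 Pol III genes, in CNP_IVM, IVM and GV oocytes. Points are oocytes, the open diamond is GV replicate 9, and bars with whiskers are means ± SD between oocytes, n = 7, 8 and 7. POLR1E and POLR3C stand far below GV in every matured oocyte, and GV replicate 9 stands apart in POLR1A, POLR1G, POLR3F and POLR3GL.

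The summed level of each class gave a different order by polymerase. Pol I genes summed to 306 ± 43.6 CPM in CNP_IVM, 405 ± 97.3 CPM in IVM and 923 ± 117 CPM in GV oocytes (mean ± SD between oocytes, n = 7, 8 and 7 throughout). The pair shared by Pol I and Pol III summed to 23.9 ± 5.05 CPM in CNP_IVM, 25.3 ± 8.36 CPM in IVM and 134 ± 39.7 CPM in GV oocytes. In both classes every matured oocyte lay below every GV oocyte. The genes of all 3 enzymes summed to 627 ± 155 CPM in CNP_IVM, 331 ± 60.7 CPM in IVM and 1129 ± 119 CPM in GV oocytes. There too no matured oocyte reached GV, with highest sums of 779 CPM in CNP_IVM and 420 CPM in IVM. The lowest GV sum was 927 CPM. Pol II genes summed to 1477 ± 308 CPM in CNP_IVM, 1340.5 ± 230.4 CPM in IVM and 1813 ± 425 CPM in GV oocytes, with overlap between all groups. Pol III genes summed to 1248 ± 138 CPM in CNP_IVM, 926 ± 64.6 CPM in IVM and 1089 ± 119 CPM in GV oocytes. A few genes made up most of each sum, and gene length was not taken into account. POLR3K held 85.9%, 80.4% and 63.6% of the Pol III reads in CNP_IVM, IVM and GV oocytes. POLR2J held 58.7% of the Pol II sum in CNP_IVM and 42.7% in IVM oocytes, and in GV oocytes the leading gene was POLR2G with 42.2%. In Pol I the leading gene was POLR1H in CNP_IVM (45.9%), POLR1B in IVM (40.7%) and POLR1E in GV oocytes (65.4%). All 31 genes summed to 3681 ± 443 CPM in CNP_IVM, 3028 ± 219.8 CPM in IVM and 5088 ± 368 CPM in GV oocytes. The order of the groups in such sums can depend on the scale. Trimmed-mean factors, by which CPM are divided, were 0.72 to 0.86 in CNP_IVM and 1.13 to 1.37 in GV oocytes. On that scale the Pol II sum of CNP_IVM was 1816 CPM and no longer below that of GV oocytes. The sum of all 31 genes was not computed on it.

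**Figure D4:**
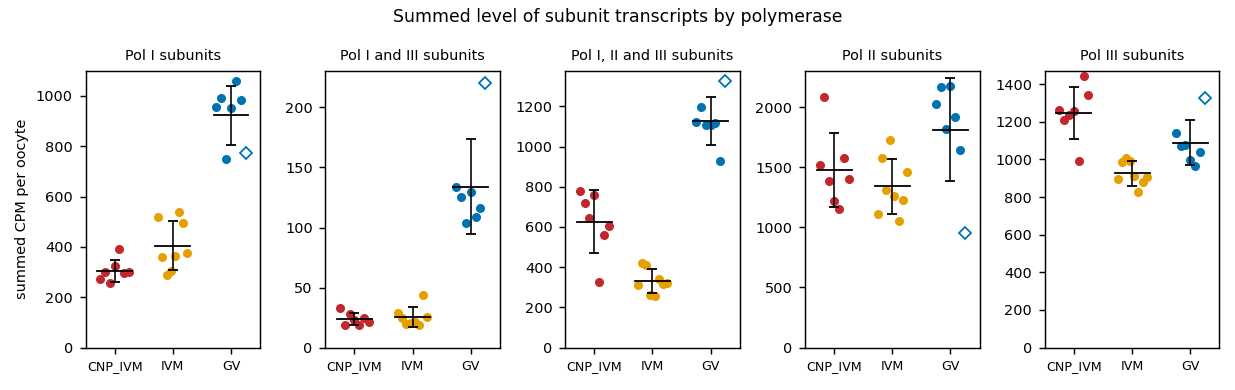
Summed CPM per oocyte (linear axis from 0) of the Pol I genes, the Pol I and III pair, the genes of all 3 enzymes, the Pol II genes and the Pol III genes, in CNP_IVM, IVM and GV oocytes. Points are oocytes, the open diamond is GV replicate 9, and bars with whiskers are means ± SD between oocytes. The Pol I sum lies at 257.7 to 392 CPM in CNP_IVM, 287 to 537 CPM in IVM and 749 to 1060.2 CPM in GV oocytes.

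The comparison of CNP_IVM with IVM addresses what the added culture with CNP does to matured oocytes. The clearest differences lay in shared subunits and went both ways. POLR2H averaged 431 ± 134 CPM in CNP_IVM and 166 ± 74.4 CPM in IVM oocytes (log2 difference 1.37), and 6 of 7 CNP_IVM oocytes were above every IVM oocyte. POLR2F averaged 158 ± 37.5 CPM in CNP_IVM and 92.0 ± 13.7 CPM in IVM oocytes (0.77), with all 7 above every IVM oocyte. POLR2E averaged 15.9 ± 6.82 CPM in CNP_IVM and 50.8 ± 23.9 CPM in IVM oocytes (-1.62), with 5 of 7 below every IVM oocyte. Of the 7 genes past 2-fold, POLR2H and POLR2E were past it under every setting tried. Within an oocyte the log2 ratio of POLR2H to POLR2E was taken with 1 CPM added to each. It ran from 3.45 to 5.63 in CNP_IVM and from -0.04 to 3.52 in IVM oocytes, with overlap. POLR2H and POLR2E had the highest and lowest log2 differences of the subunit genes here, so their ratio is no separate result.

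The other genes past 2-fold were lower in CNP_IVM, and each came under 2-fold with at least 1 other setting. POLR1A averaged 7.83 ± 2.84 CPM in CNP_IVM and 22.5 ± 13.1 CPM in IVM oocytes (log2 difference -1.41), with 6 of 7 below every IVM oocyte. POLR1B averaged 79.7 ± 11.9 CPM in CNP_IVM and 165 ± 79.5 CPM in IVM oocytes (-1.04), with 5 of 7 below every IVM oocyte. POLR1G averaged 11.8 ± 4.32 CPM in CNP_IVM and 25.4 ± 11.2 CPM in IVM oocytes (-1.05). All 3 belong to Pol I, the only polymerase of which 3 subunits were past 2-fold in this comparison. POLR3C averaged 13.9 ± 6.45 CPM in CNP_IVM and 30.5 ± 19.7 CPM in IVM oocytes (-1.08). Without IVM replicate 8, which held the IVM high of POLR1B and POLR3C, 3 genes were lower in place of 6, and POLR1B, POLR1G and POLR3C stood at -0.80, -0.92 and -0.78. POLR1D, POLR2G, POLR2I, POLR2K and POLR2L, all without overlap against GV, lay between -0.11 and 0.02 in CNP_IVM against IVM, and of these the first 4 changed sign with either other scaling. POLR3K was higher in 6 of 7 CNP_IVM oocytes than in every IVM oocyte, at a log2 difference of 0.53, and POLR3G in 4 of 7, at 0.59.

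Spread between oocytes differed by gene and by group. In GV oocytes POLR3C and POLR2F varied least, with coefficients of variation of 8.69% and 10.0%, while GV replicate 9 brought those of POLR3F and POLR3GL to 217% and 196%. In IVM oocytes, replicates 1, 8 and 9 stood high in several genes. For POLR1A they had 34.2, 34.3 and 44.6 CPM, where the other 5 had 11.5 to 14.7 CPM, and for POLR3A 26.5, 25.8 and 34.3 CPM, where the others had 4.28 to 12.8 CPM. For POLR3D they had 87.3, 88.6 and 88.5 CPM, where the others had 28.7 to 56.3 CPM. For POLR2B the same 3 oocytes were the lowest at 72.2, 72.7 and 67.5 CPM, where the others had 78.3 to 149 CPM. These 3 oocytes also had the highest marker sums in IVM, at 534, 652 and 602 CPM of cumulus and granulosa markers, where the others had 370.2 to 509 CPM, and 46.8, 45.4 and 30.8 CPM of blood and immune markers, where the others had 8.42 to 23.3 CPM. Replicates 1, 8 and 9 further reached 1 CPM in 10783, 10752 and 10653 genes, where the other IVM oocytes had 9431 to 10434. Their trimmed-mean factors were 1.14, 1.21 and 1.26, where the others had 0.76 to 0.98. The part of these traits in their levels was not tested.

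The lists of genes that work with the polymerases, described here by counts, are to be read against all genes, of which 15.9% were higher and 33.0% lower in IVM against GV, and 15.3% and 42.0% in CNP_IVM against GV. They hold genes that passed the filter, counted by the same 2-fold rule. Of 8 Pol I factors, 3 were higher and 1 lower (37.5% and 12.5%) in IVM against GV, and 3 higher and 1 lower in CNP_IVM against GV. UBTF, which binds the ribosomal gene promoter, averaged 34.5 CPM in IVM and 10.3 CPM in GV oocytes without overlap (log2 difference 1.66). RRN3, which recruits Pol I to that promoter, averaged 76.3 CPM in IVM and 24.3 CPM in GV oocytes (1.61), with overlap. Of 16 Pol III factors, 2 were higher and 8 lower (12.5% and 50.0%) in IVM, and 5 were higher and 9 lower (31.25% and 56.25%) in CNP_IVM against GV. GTF3C3, a subunit of the factor TFIIIC, averaged 99.8 CPM in CNP_IVM, 108 CPM in IVM and 22.4 CPM in GV oocytes. MAF1, the repressor of Pol III, averaged 10.3 CPM in CNP_IVM, 19.6 CPM in IVM and 66.0 CPM in GV oocytes, with every matured oocyte below GV. SSB, which binds the ends of new Pol III transcripts, averaged 788 CPM in CNP_IVM and 229 CPM in GV oocytes (1.78).

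Of 36 Pol II general initiation factors, 7 were higher and 11 lower (19.4% and 30.6%) in IVM, near the shares of all genes, and 7 higher and 12 lower (19.4% and 33.3%) in CNP_IVM against GV. The subunits of TFIIH lay on both sides. GTF2H3 averaged 159 CPM in CNP_IVM, 188 CPM in IVM and 26.7 CPM in GV oocytes, while GTF2H5 averaged 12.7 CPM in CNP_IVM, 10.5 CPM in IVM and 156 CPM in GV oocytes, without overlap between matured and GV oocytes in either gene. Of 35 elongation and pausing factors, 8 were higher and 8 lower (22.9% each) in IVM, and 10 higher and 12 lower (28.6% and 34.3%) in CNP_IVM against GV. NELFE, a subunit of the pausing factor NELF, averaged 13.6 CPM in CNP_IVM, 15.6 CPM in IVM and 245 CPM in GV oocytes, with no overlap. CCNT1, the cyclin of the kinase P-TEFb, averaged 51.2 CPM in IVM and 8.47 CPM in GV oocytes (log2 difference 2.46). Of 31 Mediator genes, 5 were higher and 9 lower (16.1% and 29.0%) in IVM, again near the shares of all genes, and 5 higher and 10 lower (16.1% and 32.3%) in CNP_IVM against GV. MED18, of the Mediator head, averaged 18.4 CPM in CNP_IVM, 36.6 CPM in IVM and 303 CPM in GV oocytes, and MED13, of its kinase module, averaged 51.8 CPM in CNP_IVM, 33.9 CPM in IVM and 8.30 CPM in GV oocytes.

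Of 27 genes for polymerase assembly, nuclear import and dephosphorylation of the POLR2A repeats, 2 were higher and 11 lower (7.41% and 40.7%) in IVM, and 2 higher and 12 lower (7.41% and 44.4%) in CNP_IVM against GV. Members of the chaperone complex that assembles polymerases were among the lower ones. UXT averaged 6.596 CPM in CNP_IVM, 10.2 CPM in IVM and 200.1 CPM in GV oocytes, and PIH1D1 averaged 2.63 CPM in CNP_IVM, 5.78 CPM in IVM and 70.6 CPM in GV oocytes, with every matured oocyte below GV in both. PDRG1, a further member of that complex, averaged 67.3 CPM in CNP_IVM, 154 CPM in IVM and 65.4 CPM in GV oocytes. Of 9 genes of mitochondrial transcription, which uses a separate single-subunit enzyme, 4 were higher and 2 lower (44.4% and 22.2%) in IVM, and 3 higher and 3 lower (33.3% each) in CNP_IVM against GV. In CNP_IVM against IVM, where 1.86% of all genes were higher and 14.8% lower, at most 1 gene per list was higher. The lower ones numbered 1 of 8 Pol I factors, 1 of 16 Pol III factors, 2 of 36 Pol II general factors, 6 of 35 elongation and pausing factors, 5 of 31 Mediator genes, 3 of 27 assembly genes and 0 of 9 mitochondrial genes. LEO1, of the PAF1 elongation complex, averaged 1128 CPM in CNP_IVM and 3691 CPM in IVM oocytes (log2 difference -1.71), and GTF2A1, of TFIIA, averaged 66.1 CPM in CNP_IVM and 22.1 CPM in IVM oocytes (1.54), both without overlap.

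**Figure D5:**
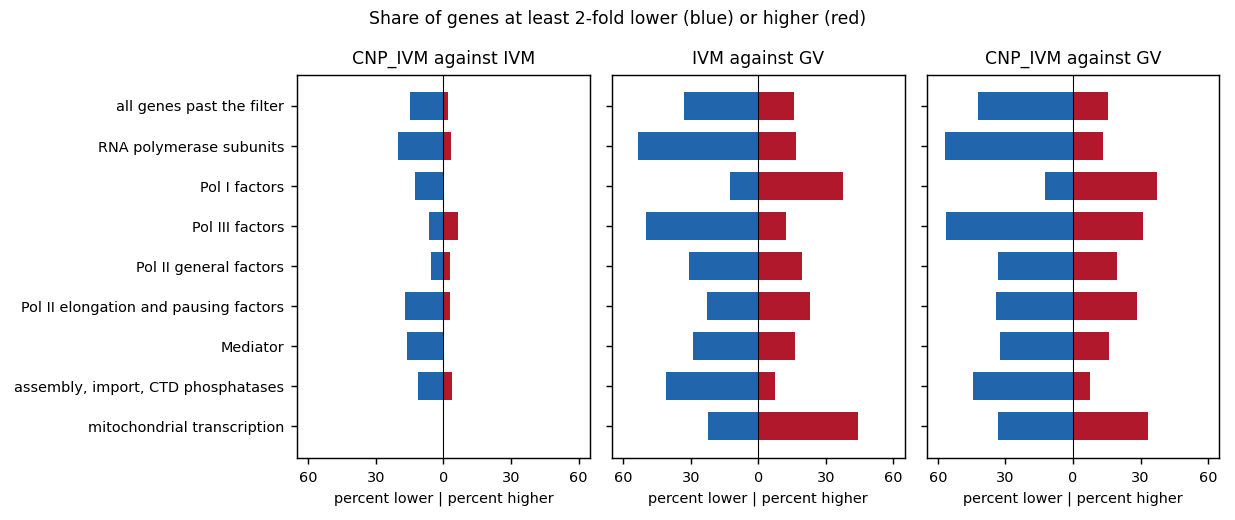
Percent of genes at least 2-fold lower (blue, to the left) and higher (red, to the right) in CNP_IVM against IVM, IVM against GV and CNP_IVM against GV, for all genes past the filter, the subunit genes and 7 lists of genes that work with them. In IVM against GV the lower share is 53.3% of subunit genes and 33.0% of all genes.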

How the data were processed

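Messenger RNA was measured in 29 labelled single-oocyte samples, of which 22 had a column in the deposited table and 7 were not analysed here. The authors deposited 1 table named for TPM, but its values are CPM: in every library 100% of them were whole multiples of the worth of 1 read (tolerance 0.01 read), the same for all genes. These steps gave library totals of 20159662 to 39340040 reads, and the listed genes held 97.1 to 97.6% of a library. Per the submitters' processing notes, the tools were HISAT2 2.2.1, featureCounts 2.0.1, Trim Galore 0.6.7, edgeR and FastQC, with roles not stated, and the build named is the mouse build GRCm39, while the symbols are cattle symbols. Per the labels' protocols, libraries were made with SMART-Seq v4 and Nextera XT. Whether counting used strand is not given in the sources used here.

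Groups were taken from the titles. No donor or culture is named, so each group counted as 1 sample and no test, count model or p-value was used. No library was a copy of another: chi-square over degrees of freedom, computed on the reads of library pairs in a group, was 38.0 or more. Log2 differences are of group means with 1 CPM added, so those of low genes are understated. They were counted over the 11852 genes that reached 1 CPM in 6 or more libraries. Of the 31 symbols, 31 matched RefSeq (assembly ARS-UCD2.0). There, 11 are overlapped by another gene (POLR1A, POLR1C, POLR1G, POLR1H, POLR2B, POLR2C, POLR2I, POLR3C, POLR3G and POLR3GL among them), so their reads may not be told apart and their values are uncertain. The members and lists were chosen with earlier results of these data known. All members could be named under the rule, but 1 is not reported here by itself and enters only the counts and sums. From each list, 2 genes per direction could be named, those with the largest differences past 2-fold whose mean reached 10 CPM in 1 of the groups, and those printed were picked from them for known function. Alternatives were trimmed-mean and quantile scaling, pseudocounts, filters, medians and leaving out each oocyte. CRCP was taken as a subunit outside the name pattern. Levels per coding length and the relation of protein length to the differences were planned and not run, since no lengths were used here. Steps were tested on simulated data. Python 3.11.15, pandas 2.3.3, numpy 2.4.6, scipy 1.17.1 and matplotlib 3.10.9 were used.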

Additional observations from a re-analysis of the deposited data

Results flagged for a closer look

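Within groups, a single oocyte stood far from the others in 18 of 108 sets of values (31 genes and 5 class sums in 3 groups), where the gap to the nearest oocyte was a large part of the whole range. The cut-off is passed by about 1 in 20 sets of independent values with a normal spread. The sets here share oocytes, and the class sums repeat the genes, so no excess over chance can be read from the 18. Of the 18, 10 came from GV replicate 9, the oocyte with a GV title and a maturation label. It stood above the other 6 GV oocytes in POLR1A (55.0 CPM, others up to 20.9), POLR1D (221 CPM, others up to 131), POLR1F (16.3 CPM, others up to 5.19), POLR1G (124 CPM, others up to 45.2), POLR3F (15.9 CPM, others up to 0.813) and POLR3GL (16.1 CPM, others up to 1.01). It stood below them in POLR2B (1.34 CPM, others from 41.2) and POLR2C (57.4 CPM, others from 202). Its sum over the Pol I and III pair was 220.5 CPM, above the others' 134, and its Pol II sum was 949 CPM, below the others' 1647.

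In IVM oocytes, POLR1B reached 342 CPM in replicate 8, POLR1D 42.7 CPM in replicate 9 and POLR2B 149 CPM in replicate 5, and the Pol I and III pair summed to 44.1 CPM in replicate 9. In CNP_IVM oocytes, POLR1F reached 55.1 CPM in replicate 5, and POLR3E 0.866 CPM in replicate 6. In GV oocytes, POLR2M reached 100.4 CPM in replicate 4 and POLR3C 138 CPM in replicate 7.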

How the results depend on the processing

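No paired analysis was possible because no donor or culture is named per oocyte, and no result comes from a test. Of 2015 recomputed member values, 56 had another sign than the reported one, over 16 genes, and 53 of these were under 2-fold as reported. The other 3 are those of POLR3GL below. The 2015 include 93 values from the setting with no filter and 93 from that with a mean of at least 10 CPM. A filter changes which genes are counted and not a gene's value, so these could not differ. With trimmed-mean scaling the genes at least 2-fold higher and lower numbered 2 and 3 in CNP_IVM against IVM, 8 and 10 in IVM against GV, and 10 and 10 in CNP_IVM against GV. In CNP_IVM against IVM the lower genes numbered 2 with quantile normalization and 3 with a pseudocount of 5 CPM, and 3 to 8 when single oocytes were left out. The other counts ranged over 1 to 1 higher in CNP_IVM against IVM, 4 to 6 higher and 14 to 17 lower in IVM against GV, and 4 to 5 higher and 15 to 18 lower in CNP_IVM against GV when single oocytes were left out. Class sums under trimmed-mean scaling were 379 CPM for Pol I, 29.5 CPM for the Pol I and III pair, 1816 CPM for Pol II and 1545 CPM for Pol III in CNP_IVM, and 729 CPM for Pol I, 890.4 CPM for the genes of all 3 enzymes and 856 CPM for Pol III in GV oocytes. With quantile normalization the CNP_IVM sums were 356 CPM for Pol I and 31.4 CPM for the pair. POLR3GL changed sign, to 0.018 in IVM against GV with group medians. When single oocytes were left out it ranged from -1.18 to 0.12 in IVM against GV and from -1.21 to 0.12 in CNP_IVM against GV, with 0.12 in both without GV replicate 9. The cause was not tested, except that GV replicate 9 held 16.1 CPM of POLR3GL. Levels per coding length and the relation of protein length to the differences were not run. POLR1C, POLR3E, POLR3F and POLR3GL rest on few reads per oocyte, which limits their differences.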
